A study of Mus musculus with 5 samples.

Results

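Gene expression in ESC-like cells recovered from teratomas was compared between injection of embryonic stem cells (ESCs) mixed with fetal fibroblasts and injection of ESCs alone, in the same recipient strain. The comparison used 3 of the 5 arrays of the series, namely the co-injection arrays of batch 1 and batch 2 and the array of heterologous ESCs alone (n = 1), and it covered all 19938 genes that had a probe set naming exactly 1 gene. For each gene the value of the heterologous array was subtracted from the mean of the co-injection pair on the log2 scale, where a difference of 1 is 2-fold. The donor ESCs of all 3 populations were one B6CBAF1 line, injected subcutaneously into B6D2F1 mice. For co-injection, a minority of B6D2F1 fetal fibroblasts (MFF) was added to the ESCs. Cells dissociated from the teratomas were then grown on inactivated ICR fetal fibroblasts in medium with leukemia inhibitory factor. The remaining arrays, parental ESCs of the same line and ESC-like cells after injection of ESCs alone into B6CBAF1 mice (homologous), did not enter the difference and are given for orientation. Whether the 2 co-injection batches came from separate teratomas is not given in the sources used here.

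ESCs grow as compact colonies whose cells are held together by E-cadherin and express transcription factors of the pluripotent state. Mesenchymal cells such as fibroblasts lack these junctions, secrete collagens, fibronectin and other matrix proteins, and pull on that matrix with actin filaments. The change from an epithelial to a mesenchymal state (EMT) is driven by transcription factors of the Snail, Zeb, Twist and Prrx families and promoted by TGF-beta. Because a feeder layer of fibroblasts was part of every culture, transcripts of fibroblasts can come from ESC-like cells, feeder cells or tumor stroma. After co-injection they can also come from the added fetal fibroblasts. In these bulk samples, fewer cells of a type and less RNA per cell cannot be told apart.

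Far more genes were lower than higher after co-injection. Over 2-fold lower were 596 genes (2.99% of the 19938), against 72 over 2-fold higher (0.361%). Of the lower genes 158 passed 4-fold and 51 passed 8-fold, whereas no higher gene reached 4-fold. The largest negative difference was −5.22 for Tnc (tenascin C, a matrix glycoprotein), and the largest positive difference was 2.00 for Rbm47 (an RNA-binding protein). Each co-injection array on its own passed 2-fold in the same direction for 538 of the lower and 63 of the higher genes. The median difference over all genes was 0.07 (SD over genes 0.43), with the 10th percentile at −0.36 and the 90th at 0.34.

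In the genes compared, the 2 co-injection arrays differed little from each other. The SD of the pair had a median of 0.048 over all genes and a 95th percentile of 0.18. Only 1 of the 19938 genes differed more than 2-fold between the 2 arrays. Over all probe sets, named or not, 103 did so, and most of these thus lay outside the genes compared. In 1176 genes the pair had identical deposited values, so that its SD is 0 there and understates the error. The heterologous array has no replicate, so its own spread is unknown, no gene is given a p-value, and the number of arrays limits the precision. At the threshold, Cdh1, Pecr and Vmn2r-ps104 had the smallest differences counted as higher (1.0019, 1.0078 and 1.0159), while Sec14l4, Triml1 and Smtnl2 were just left out (0.9985, 0.9979 and 0.9977). Tgfbi, Mmp3 and Lrrc8c were just counted as lower (−1.0002, −1.0008 and −1.0010), and Olfr1314, P3h2 and Cinp were just left out (−0.9986, −0.9963 and −0.9956).

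**Figure D1:**
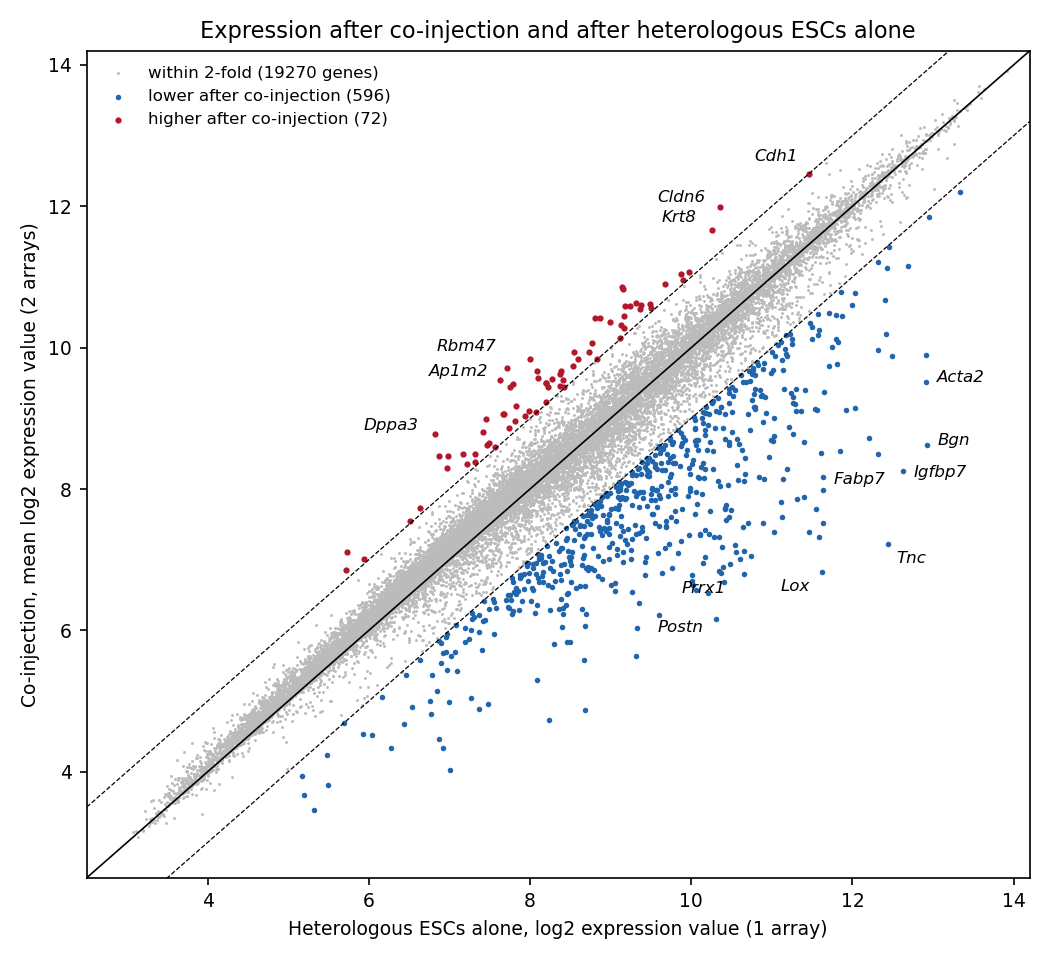
Each point is 1 of 19938 genes, with its log2 expression value in the array of heterologous ESCs alone on the x axis and the mean of the 2 co-injection arrays on the y axis. The solid line marks equal values and the dashed lines 2-fold; the 596 lower genes (blue) reach −5.22 at Tnc, and the 72 higher genes (red) end at 2.00 at Rbm47.

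All 3 populations expressed the transcripts that define ESCs. Pou5f1, which encodes the pluripotency factor Oct-4, had a log2 value of 12.32 in the heterologous array and 12.40 and 12.36 in the co-injection arrays. Nanog was at 12.22 against 12.25 and 12.31. Tdgf1 (Cripto, a co-receptor of Nodal) was at 12.64 against 12.64 and 12.62. None of the 17 measured core pluripotency genes passed 2-fold, and their median difference was 0.22, against 0.07 over all genes. Zfp42 (Rex-1), a zinc finger gene of undifferentiated ESCs, lay closest to the threshold, with 8.53 in the heterologous array against 9.40 and 9.63 (difference 0.98 ± 0.16, SD, n = 2), and Sox2 followed with 0.60. Zfp42 lies on chromosome 8, whose genes as a group had a positive median of 0.20.

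Genes of the naive state, the ground state of ESCs in the early blastocyst, lay mostly above the heterologous array. Of 19 measured genes 17 had a positive difference, with a median of 0.60, where the median over all genes was also positive, at 0.07. Over 2-fold higher were 2 of the 19 (10.5%, against 0.361% of all genes). Dppa3 (Stella), which protects the methylation of the maternal genome in the early embryo, had a log2 value of 6.82 in the heterologous array and 8.85 and 8.71 in the co-injection arrays. This gave a difference of 1.96 ± 0.10 (SD, n = 2), and both co-injection arrays lay well above the heterologous one, beside 7.02 in parental ESCs and 8.97 in the homologous array. Klf2, a Krüppel-like factor of the naive network, was at 9.49 against 10.53 and 10.71 (1.12 ± 0.12). Nr5a2 and Tfcp2l1, further transcription factors of this network, were within 2-fold at 0.96 and 0.92. Gbx2 and Stat3, which mediates the signal of leukemia inhibitory factor, had the lowest values of the list, −0.35 and −0.09.

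Among genes of the primed epiblast, the state after implantation, Otx2 was over 2-fold higher and Cdh2 over 2-fold lower. Otx2, a homeobox gene of the epiblast and forebrain, was at 7.75 in the heterologous array and 9.60 and 9.30 after co-injection (1.70 ± 0.21). Cdh2, encoding N-cadherin, was at 10.79 against 9.13 and 9.19, a difference of −1.63. The other primed genes did not pass 2-fold except Cldn6, a claudin that also belongs to the epithelial list, and the median of the 17 genes was −0.10. Fgf5 and Dnmt3b, 2 classical markers of the primed state, had differences of −0.14 and 0.27.

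Of the 49 gene lists examined, the epithelial one had the most genes over 2-fold higher. Of 26 measured epithelial genes 13 (50.0%) were over 2-fold higher and none over 2-fold lower, beside 0.361% higher among all genes, and the median difference was 0.98 (1.05 for batch 1 and 0.98 for batch 2). The mean log2 level of the list was 8.76 in the heterologous array and 9.78 and 9.69 in the co-injection arrays, beside 9.16 in parental ESCs and 9.60 in the homologous array. The list covered junction proteins, keratins, polarized transport and the regulators of epithelial splicing and transcription.

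Of the junction genes, Cldn4 and Cldn6, encoding claudins of tight junctions, changed most. Cldn4 was at 9.14 in the heterologous array and 10.85 and 10.87 after co-injection (1.72 ± 0.0095, SD, n = 2), and Cldn6 was at 10.35 against 12.05 and 11.94 (1.65 ± 0.074). Cdh1, encoding E-cadherin, was at 11.46 against 12.49 and 12.43, which put it just past 2-fold with both arrays but not without the first co-injection array (difference 0.97) or with cyclic loess (0.97). In all 3 genes both co-injection arrays lay above the heterologous array, whose own error is not part of the SD of the pair. Epcam, an adhesion molecule of epithelia and ESCs, and Cdh3 (P-cadherin) stayed within 2-fold at 0.87 and 0.95, and Tjp1, which encodes the scaffold protein ZO-1, had a difference of 0.08.

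Of the keratins, Krt8 was at 10.25 in the heterologous array and 11.86 and 11.47 after co-injection (1.41 ± 0.27), and its partner Krt18 was at 9.38 against 10.82 and 10.38 (1.22 ± 0.31). Krt19 was at 7.67 against 9.07 and 9.04 (1.39 ± 0.018). For all 3 keratins the co-injection arrays also lay above parental ESCs, whose values were 9.77, 8.51 and 7.58.

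Polarized transport was represented by Ap1m2, a subunit of the AP-1B adaptor that sorts proteins to the basolateral membrane, and Rab25, a GTPase of recycling endosomes. Ap1m2 was at 7.62 in the heterologous array and 9.65 and 9.44 after co-injection (1.92 ± 0.14), and Rab25 was at 7.79 against 9.55 and 9.42 (1.69 ± 0.092). Regulators were higher too. Esrp1 and Esrp2, which impose the epithelial pattern of alternative splicing, had differences of 1.41 ± 0.0055 and 1.12 ± 0.040, and Grhl2, a transcription factor of epithelial junction genes, 1.15 ± 0.18. Its relative Grhl3, outside the list, was at 8.80 against 10.42 and 10.43 (1.62 ± 0.011), and the epithelial factor Elf3 had a difference of 1.59 ± 0.081. The membrane proteases Prss8 (prostasin) and St14 (matriptase), which act in one cascade at epithelial surfaces, had differences of 1.84 ± 0.18 and 1.18 ± 0.099. Sfn (stratifin, a 14-3-3 protein of epithelia) and Lad1 (ladinin, of the basement membrane zone) were higher by 1.67 ± 0.23 and 1.53 ± 0.022. Spint1, Ovol1 and Pkp1 had the smallest differences of the list beside Tjp1, at 0.16, 0.35 and −0.14.

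**Figure D2:**
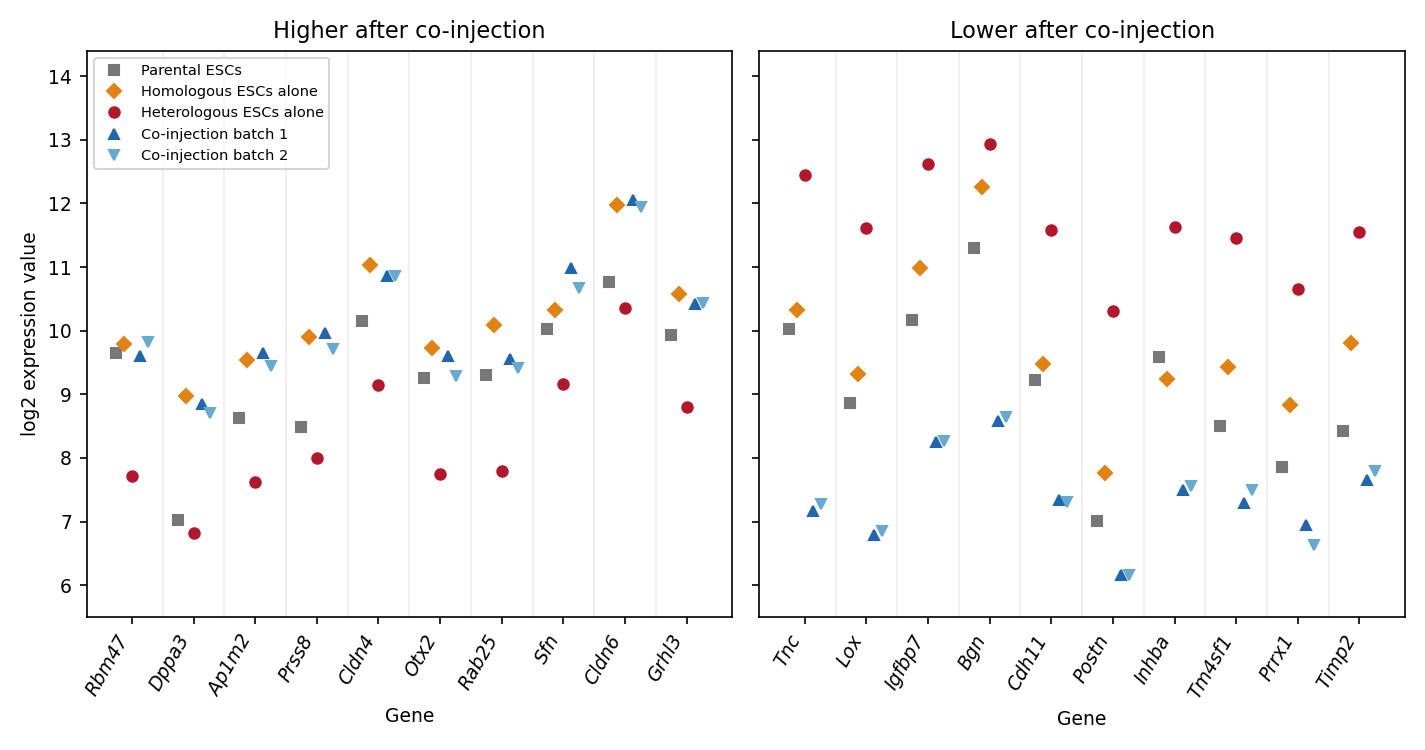
Log2 expression values (y axis) in each of the 5 arrays are shown for the 10 genes with the largest positive (left) and the largest negative (right) differences among genes above the median of all values. The co-injection arrays (triangles) lie above the heterologous array (circle) for all 10 genes on the left, for example Ap1m2 at 9.65 and 9.44 against 7.62, and below all 3 other arrays on the right, for example Tnc at 7.17 and 7.27 against 12.44.

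Promoters of epithelial genes often carry E-boxes, the hexamers CACCTG and its reverse complement CAGGTG, to which Snail and Zeb repressors bind. Promoter sequences from RefSeq (GRCm38.p6, 250 bases before to 50 after a start) were searched for this motif on both strands. It was present in 20.2% of all 32851 promoters, in 24 of 62 promoters of the higher genes (38.7%) and in 68 of 541 promoters of the lower genes (12.6%). Of the 13 epithelial genes over 2-fold higher, 7 were in the table with 8 promoters, of which 7 (87.5%) held an E-box. The epithelial genes within 2-fold held it nearly as often, in 9 of 11 promoters (81.8%). The 130 bases before the start are shown for 4 of the higher genes, with the E-boxes in capitals, because they carry from 1 to 4 copies. Ap1m2 is at chr9:21312334-21312463 on the minus strand, Rab25 at chr3:88548280-88548409 on the minus strand, Cldn7 (its start with an E-box) at chr11:69965291-69965420 on the plus strand and Cldn4 at chr5:134946935-134947064 on the minus strand. A match is a description of the letters and does not show that a factor binds there.
Ap1m2: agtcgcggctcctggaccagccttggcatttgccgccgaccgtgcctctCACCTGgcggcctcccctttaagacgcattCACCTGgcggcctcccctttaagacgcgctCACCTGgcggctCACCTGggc
Rab25: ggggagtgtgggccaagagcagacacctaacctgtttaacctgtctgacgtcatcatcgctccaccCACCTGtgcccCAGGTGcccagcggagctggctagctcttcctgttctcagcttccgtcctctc
Cldn7: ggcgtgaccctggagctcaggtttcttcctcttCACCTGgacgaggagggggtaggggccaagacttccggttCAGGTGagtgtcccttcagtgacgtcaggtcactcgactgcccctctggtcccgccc
Cldn4: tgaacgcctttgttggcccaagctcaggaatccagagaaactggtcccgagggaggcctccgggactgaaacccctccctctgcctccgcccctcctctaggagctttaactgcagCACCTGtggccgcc

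Most transcription factors of EMT were lower. Of 12 measured genes 7 (58.3%) were over 2-fold lower and none was over 2-fold higher, beside 2.99% lower among all genes, and the median difference was −1.30. Prrx1, a homeobox gene of limb and craniofacial mesenchyme, was at 10.65 in the heterologous array and 6.95 and 6.64 after co-injection (−3.86 ± 0.22). Snai2 (Slug) was at 10.56 against 7.22 and 7.01, a difference of −3.44 ± 0.15. Both genes were thus over 8-fold lower in each co-injection array, beside 7.86 and 7.88 in parental ESCs. Zeb2 and Zeb1, repressors of E-cadherin, had differences of −2.10 and −1.53, Foxc2 −2.07 and Twist2 −1.66. Snai1, the Snail gene itself, was just past 2-fold at −1.06, Twist1 was within it at −0.49, and Snai3 had the highest difference of the list, 0.56.

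Fibroblast genes were lower. Of 27 measured genes of fibroblast identity 17 (63.0%, against 2.99% of all genes) were over 2-fold lower and none over 2-fold higher (0.361% of all genes), with a median difference of −1.66 (−1.63 for batch 1 and −1.69 for batch 2). The mean log2 level of the list was 9.36 in the heterologous array and 7.57 in each co-injection array, beside 7.88 in parental ESCs and 8.23 in the homologous array, so the co-injection arrays were the lowest of the 5. Postn (periostin, a matrix protein of mesenchyme) was at 10.31 in the heterologous array and 6.16 in both co-injection arrays, a difference of −4.15. Pdgfrb, the receptor of platelet-derived growth factor on mesenchymal cells, was at 10.66 against 7.08 and 7.18 (−3.53 ± 0.068), and Thy1, a surface marker of fibroblasts, was at 10.91 against 8.12 and 8.16 (−2.77 ± 0.030). Vim (vimentin, the intermediate filament of mesenchymal cells) was at 13.33 against 12.22 and 12.19. Fn1 (fibronectin) and Col3a1 stayed within 2-fold at −0.39 and −0.36, and Pi16, Eln and Tcf21, whose probe sets had similar values in all 5 arrays, had differences of 0.28, 0.20 and 0.15. How much of the fibroblast signal came from feeder cells, stroma or co-injected fibroblasts was not tested, here or for the mesenchymal groups that follow.

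Few markers of other cells of a tumor or its host passed 2-fold. Of 17 macrophage genes only 1 (5.9%, against 2.99% of all genes) was over 2-fold lower, Lyz2 (lysozyme, 7.02 in the heterologous array against 5.43 and 5.86). The mean level of the list was 6.70 against 6.60 and 6.69. Of 12 lymphocyte genes none passed 2-fold, and the mean level of the list was 6.41 against 6.58 and 6.67. The mean levels of both lists lay below 7.49, the median of all values. These lists were thus dim, and their small differences do not show whether such cells were present. Of 13 endothelial genes 1 (7.7%, against 0.361% of all genes) was over 2-fold higher. This was Pecam1, an adhesion molecule that ESCs express as well, at 7.99 against 9.02 and 9.20 (1.12 ± 0.13). Kdr, the receptor of vascular endothelial growth factor, had a difference of 0.17. Of 11 housekeeping genes 1 (9.1%, against 2.99% of all genes) was over 2-fold lower, and the median of the list was 0.00. This was B2m, which encodes the light chain of MHC class I (11.99 against 10.57 and 10.64). Actb had a difference of −0.06.

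Xist, the RNA that coats the inactive X chromosome of female cells, moved with the fibroblast genes. It was at 8.41 in the heterologous array and 6.34 and 6.29 after co-injection, a difference of −2.10, beside 6.80 in parental ESCs and 6.79 in the homologous array. The heterologous array alone lay above the others. The Y-linked genes Uty and Eif2s3y had differences of 0.44 and −0.70. Their values were 5.30 and 5.34 in the parental array and 7.78 to 8.75 in the 4 arrays from teratomas, so the parental array stood apart in these Y-linked genes. The part of cells of either sex in the differences was not tested.

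**Figure D3:**
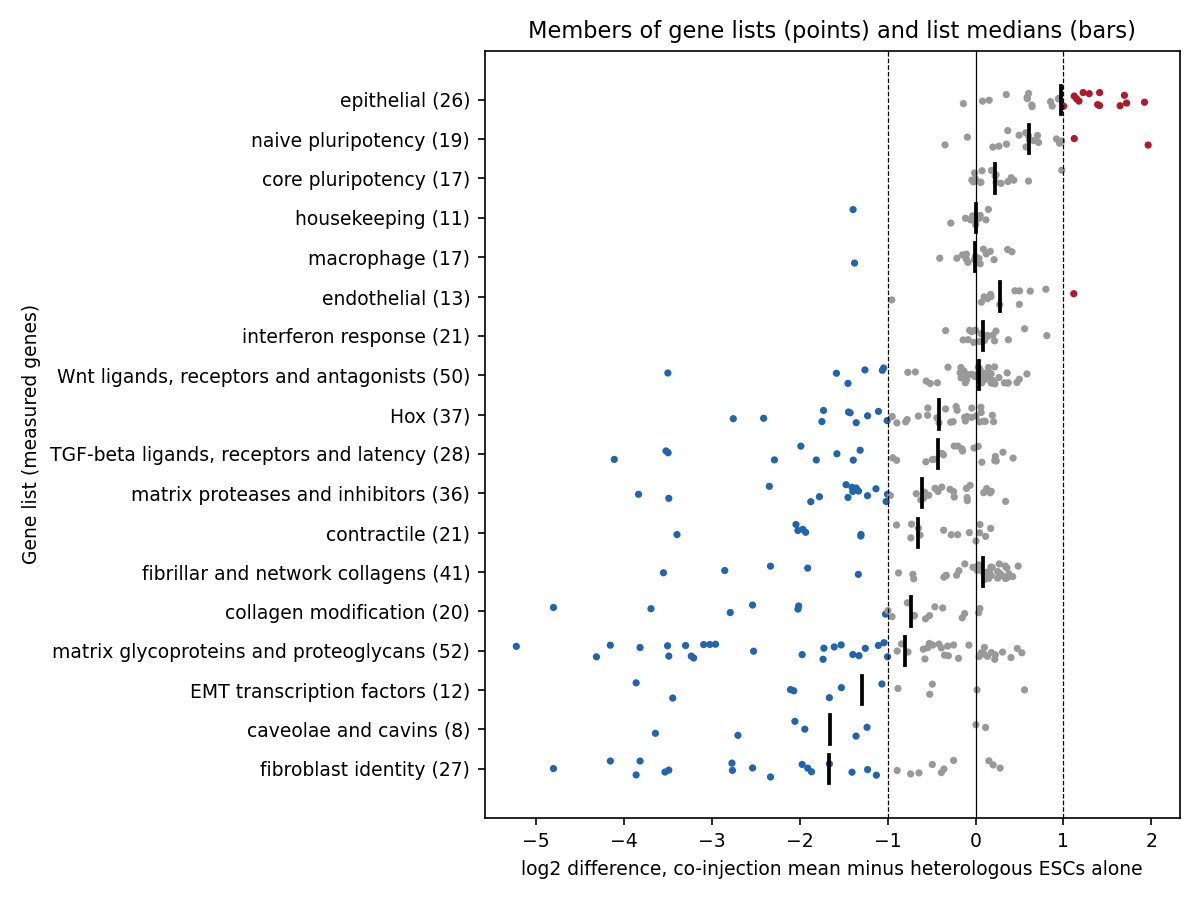
Each point is a gene of a list, placed at its log2 difference, co-injection mean minus heterologous ESCs alone (x axis), and the black bar is the median of the list; dashed lines mark 2-fold and the number of measured genes follows each name. Epithelial genes lie to the right (median 0.98), fibroblast genes to the left (−1.66), and core pluripotency genes near 0 (0.22).

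Matrix genes were lower as well. Over 7 lists of mesenchymal and matrix genes together, 71 of 193 genes (36.8%, against 2.99% of all genes) were over 2-fold lower and none was over 2-fold higher, and they formed 11.9% of all lower genes. Of 52 glycoproteins and proteoglycans 24 (46.2%) were over 2-fold lower, with a median of −0.80. Tnc, a glycoprotein of embryonic and healing tissue that loosens adhesion, was at 12.44 in the heterologous array and 7.17 and 7.27 after co-injection, a difference of −5.22 ± 0.074, or 37.4-fold. Bgn (biglycan, a small proteoglycan that binds collagen) was at 12.93 against 8.58 and 8.65 (−4.31 ± 0.048), and Fbln2 (fibulin 2, of elastic fibers) was at 12.31 against 8.50 and 8.50 (−3.82 ± 0.0024). For these 3 genes the co-injection arrays also lay below parental ESCs, which had values of 10.02, 11.30 and 9.63. Dcn (decorin) and Aspn (asporin), relatives of biglycan, had differences of −3.49 and −3.50, and Thbs1 and Thbs2, thrombospondins that can activate latent TGF-beta or clear proteases, −3.02 and −3.21. Genes of basement membranes were split. Nid1 (nidogen 1) and Lama4 (a laminin chain of vessels) were over 2-fold lower at −1.73 and −1.40, whereas Nid2 (nidogen 2), Agrn (agrin) and Lama1 (a laminin chain of the early embryo) stayed within 2-fold at 0.53, 0.47 and 0.40, the highest values of the list.

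Of 41 collagen genes 5 (12.2%, against 2.99% of all genes) were over 2-fold lower, and the median was 0.08. Col12a1, of the collagens that coat fibrils, was at 10.37 in the heterologous array and 6.81 and 6.83 after co-injection, a difference of −3.55 ± 0.0091. Col8a1, a short-chain collagen of vessel walls, was at 10.22 against 7.37 and 7.36 (−2.85). Col1a1 and Col1a2, the chains of type I collagen, had differences of −2.33 and −1.91, and Col6a3 −1.33. The basement membrane collagens Col4a1 and Col4a2 had differences of −0.12 and −0.34.

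Of 20 genes of collagen modification 7 (35.0%, against the same 2.99%) were over 2-fold lower, with a median of −0.74. Lox, lysyl oxidase, which crosslinks collagen and elastin, was at 11.62 in the heterologous array and 6.79 and 6.85 after co-injection (−4.80 ± 0.042, or 27.9-fold). Its relatives Loxl3 and Loxl1 had differences of −2.79 and −2.54. P4ha3, a subunit of the prolyl hydroxylase that stabilizes the collagen helix, was at 10.74 against 6.999 and 7.10 (−3.69 ± 0.072). Bmp1, a protease that trims procollagen and activates lysyl oxidase, was at 11.42 against 9.41 and 9.38 (−2.02 ± 0.025), and Tll1, of the same family, had a difference of −2.01.

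Of 36 matrix proteases and inhibitors 15 (41.7%, against 2.99% of all genes) were over 2-fold lower. The tissue inhibitors of metalloproteinases led: Timp2 was at 11.55 in the heterologous array and 7.65 and 7.79 after co-injection (−3.83 ± 0.10), Timp3 had a difference of −3.49 and Timp1 −2.35. The plasminogen activators Plau and Plat (−1.87 and −1.78) and the metalloproteinases Mmp2 and Mmp14 (−1.45 and −1.33) were lower by less. Mmp11 had the highest difference of the list, 0.34.

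Contractile and adhesion genes were lower in part. Of 21 contractile genes 7 (33.3%, against 2.99% of all genes) were over 2-fold lower. Acta2, the smooth muscle actin of myofibroblasts, was at 12.92 in the heterologous array and 9.53 and 9.51 after co-injection (−3.40 ± 0.015), and Tagln, Cald1 and Myl9, which bind or drive actin filaments, had differences of −2.04, −2.02 and −1.96. Markers of mature muscle, Myh11 and Des, stayed at 0.05 and −0.20, as did Srf, the transcription factor of many of these genes, at −0.07. Of 8 genes of caveolae, flask-shaped pits of the membrane, 6 (75.0%, against the same 2.99%) were over 2-fold lower (median −1.65). Cav1 (caveolin 1) led at 11.03 against 7.41 and 7.37. Of 20 integrins 3 (15.0%, against 2.99%) were over 2-fold lower, Itgb8, Itga11 and Itgav (−2.76, −2.62 and −1.31). Itgb8 and Itgav form a receptor that releases TGF-beta. Cdh11, a cadherin of mesenchyme that is in none of the lists, was at 11.59 against 7.34 and 7.31 (−4.26 ± 0.023). Of 17 genes that respond to the regulators YAP or SRF 10 (58.8%, against 2.99% of all genes) were over 2-fold lower. The connective tissue growth factor gene Ccn2 was at −1.53 and Ankrd1 at −1.99, while Yap1 itself had a difference of 0.03.

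Signalling genes were described by ligand, receptor and inhibitor. TGF-beta ligands are made in a latent form, which Ltbp proteins tether to the matrix and Lrrc32 (GARP) to the cell surface. Of 28 genes of this group 9 (32.1%, against 2.99% of all genes) were over 2-fold lower, with a median of −0.43. Among ligands, Inhba, the subunit of activin A, was at 11.64 in the heterologous array and 7.49 and 7.56 after co-injection (−4.11 ± 0.047). Tgfb3 was at 10.39 against 6.94 and 6.85 (−3.50 ± 0.065), Tgfb2 had a difference of −1.58, and Tgfb1 was within 2-fold at −0.90. Lrrc32 was at 11.13 against 7.58 and 7.64 (−3.52 ± 0.042), and Ltbp2 and Ltbp1 had differences of −2.29 and −1.81. The receptor gene Tgfbr2 was over 2-fold lower at −1.31 and Tgfbr1 was within 2-fold at −0.36. Fst (follistatin), which binds activin, was at −1.99. Nodal, the TGF-beta family ligand of the epiblast, had a difference of 0.31. Of 15 genes known to respond to TGF-beta 8 (53.3%, against the same 2.99%) were over 2-fold lower. Among them were Acta2, Col1a1 and Tagln, which other lists hold as well, whereas the feedback inhibitor Smad7 had a difference of −0.02.

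Of 30 genes of BMP signalling 4 (13.3%, against 2.99% of all genes) were over 2-fold lower and the median was −0.04. Besides Bmp1, which is a protease, these were Grem1 (gremlin, a BMP antagonist), at 11.12 in the heterologous array against 7.70 and 7.94 (−3.30 ± 0.17), Fstl1 (−1.68) and Bmp2 (−1.15). Bmp4, which ESCs secrete, and its target Id1 had differences of 0.64 and 0.60, within 2-fold.

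Of 50 Wnt genes 6 (12%, against 2.99% of all genes) were over 2-fold lower and the median was 0.04. Wnt5a, a ligand of the pathway that does not use beta-catenin, was at 10.34 in the heterologous array and 6.96 and 6.73 after co-injection (−3.50 ± 0.16). Wnt8a, a ligand of the primitive streak, was at 9.62 against 8.05 and 8.03 (−1.58 ± 0.0098), above the 7.32 of parental ESCs in both. The antagonists Dkk2, Frzb and Dkk3 (−1.45, −1.26 and −1.05) and the receptor gene Fzd2 (−1.06) made up the rest. Axin2 and Lef1, targets of beta-catenin, were within 2-fold at −0.18 and 0.22.

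Of 29 FGF genes 3 (10.3%, against 2.99% of all genes) were over 2-fold lower. These were the mesenchymal ligands Fgf7 and Fgf10 (−2.35 and −1.72) and Fgf2 (−1.25), while Fgf4, the ligand of ESCs, had a difference of 0.29. Of 19 receptor kinases and ligands of mesenchyme 5 (26.3%, against the same 2.99%) were over 2-fold lower. Axl, the receptor of Gas6, was at 11.60 against 8.60 and 8.43 (−3.09), and Egfr had a difference of −1.58, beside Pdgfrb, Ddr2 and Pdgfra. In the insulin-like growth factor system 6 of 13 (46.2%, against 2.99%) were over 2-fold lower. Igfbp7, a secreted protein of vessels and fibroblasts, was at 12.63 against 8.25 and 8.27 (−4.37 ± 0.015, or 20.7-fold), and the ligand genes Igf1 and Igf2 had differences of −1.51 and −1.43. Of 45 semaphorin, neuropilin and ephrin genes 4 (8.9%, against 2.99% of all genes) were over 2-fold lower. The receptor gene Nrp1 led at −3.39, with the ligand genes Sema3a and Sema3c at −2.46 each. Of 8 measured neurotrophin genes and receptors none passed 2-fold.

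Of 30 chemokines and inflammatory mediators 10 (33.3%, against 2.99% of all genes) were over 2-fold lower and 1 (3.3%, against 0.361%) was over 2-fold higher. Ccl7 and Ccl2, chemokines that attract monocytes, were at 11.40 and 11.31 in the heterologous array, at 7.92 and 7.71 in batch 1 and at 7.85 and 8.02 in batch 2, differences of −3.52 and −3.44. Osmr, the receptor subunit for oncostatin M, was at 10.21 against 6.37 and 6.70 (−3.67 ± 0.24), and Ptgs2, the inducible cyclooxygenase, was at 11.85 against 8.56 and 8.51 (−3.31 ± 0.035). Il33, an alarmin, had a difference of −2.83 and Csf1, the growth factor of macrophages, −2.45. Cxcl16, a membrane-bound chemokine, was the higher one, at 7.32 against 8.32 and 8.45 (1.06 ± 0.090).

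Hox genes, which record position along the body axis, were lower in part. Of 37 measured genes 10 (27.0%, against 2.99% of all genes) were over 2-fold lower and none over 2-fold higher, with a median of −0.41. Hoxc8 was at 10.17 in the heterologous array and 7.36 and 7.47 after co-injection (−2.76 ± 0.073), and Hoxa5 was at 9.44 against 6.997 and 7.07 (−2.41 ± 0.050). Hoxb2 and Hoxc6 followed at −1.75 and −1.73. These 4 of the 10 lower genes belong to anterior or thoracic positions of the clusters. The most posterior genes measured, Hoxa13, Hoxb13, Hoxc13 and Hoxd13, had differences of 0.01, 0.09, −0.25 and −0.28. A relation to position was not tested. The mean level of the list was 7.65 in the heterologous array and 7.01 and 7.04 after co-injection, the latter below 7.49, the median of all values. Without genes dim in both conditions the list had a median of −0.95.

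Most germ layer and trophectoderm genes stayed within 2-fold. Of 19 genes of neural progenitors 5 (26.3%, against 2.99% of all genes) were over 2-fold lower. Fabp7, a fatty acid binding protein of radial glia, was at 11.64 in the heterologous array and 7.92 and 8.05 after co-injection (−3.65 ± 0.094), and Ncam1, a neural adhesion molecule, had a difference of −2.48. Nes (nestin) was at 10.39 against 8.98 and 8.76 (−1.52 ± 0.15), and Pax6, a transcription factor of the neural tube and eye, was at 8.95 against 7.91 in both arrays (−1.05). Sox1, the early marker of neuroectoderm, was within 2-fold at −0.36. In the primitive streak, mesoderm and endoderm lists 2 of 17, 2 of 17 and 3 of 19 genes were over 2-fold lower and none higher. The shares were 11.8%, 11.8% and 15.8%, against 2.99% of all genes, and the medians were 0.06, 0.09 and 0.00. Afp, the fetal serum protein of endoderm, had a difference of 0.09. Of 12 trophectoderm genes 4 (33.3%, against 0.361% of all genes) were over 2-fold higher. These were the keratins Krt8 and Krt18 with Tfap2c (1.30 ± 0.14) and Plet1 (1.03 ± 0.26). Cdx2 and Eomes, which define that lineage, had differences of 0.05 and 0.00.

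Several miRNA genes stood out among the lower genes; they were grouped after their values had been seen. The probe sets of the array measure RNA of the gene or precursor, and mature miRNAs were not measured. Of 272 miRNA genes with a RefSeq entry 32 (11.8%) were over 2-fold lower, beside 2.99% of all genes, and none was over 2-fold higher. Only 18 of the 32 had a value above the median of all values, 7.49, so part of them were dim. They came mostly from 2 clusters, 5 of 5 genes of the Mir302b to Mir367 cluster on chromosome 3 and 23 of 30 genes of the Mir379 to Mir369 cluster on chromosome 12.

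The miR-302 and miR-367 miRNAs are characteristic of pluripotent cells, above all of the primed state, and their genes lie in an intron of Larp7. Mir302b was at 7.01 in the heterologous array and 4.03 in both co-injection arrays, a difference of −2.98, and at 4.22 and 4.27 in the parental and homologous arrays. Mir302d, Mir302c, Mir302a and Mir367 had differences of −2.23, −2.01, −1.93 and −1.68. In all 5 genes the heterologous array alone lay above the others, and all values were below the median of all values. Larp7 itself was at 10.90 against 10.79 and 10.85, a difference of −0.08. Whether the miRNA genes share a transcript with Larp7 was not tested. The mature sequences of the cluster that were available here (RefSeq, GRCm38.p6, chr3:127545238-127545800, plus strand) are shown because their seeds, bases 2 to 8, in capitals, define the targets of a miRNA. The set is incomplete, since miR-302a-3p was not available. Among the sequences shown, miR-302b-3p and miR-302d-3p share the seed AAGUGCU, and miR-302c-3p begins 1 base further in and has AGUGCUU. The seed CUUUAAC is shared by miR-302b-5p, miR-302c-5p and miR-302d-5p.
mmu-miR-302b-5p: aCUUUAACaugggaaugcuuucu
mmu-miR-302b-3p: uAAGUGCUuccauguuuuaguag
mmu-miR-302c-5p: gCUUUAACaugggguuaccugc
mmu-miR-302c-3p: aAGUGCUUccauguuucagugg
mmu-miR-302a-5p: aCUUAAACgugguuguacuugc
mmu-miR-302d-5p: aCUUUAACauggaggcacuugcu
mmu-miR-302d-3p: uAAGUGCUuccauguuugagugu
mmu-miR-367-5p: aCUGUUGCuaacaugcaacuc
mmu-miR-367-3p: aAUUGCACuuuagcaaugguga

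Seeds were compared only among mature miRNAs of genes over 2-fold lower. Among these, miR-363-3p has the seed of miR-367-3p, AUUGCAC. Its gene Mir363, on the X chromosome, was at 6.96 in the heterologous array against 5.53 and 5.34 (−1.53 ± 0.14). Because of this choice, the shared seed does not show that genes with it were lower as a group. The neighbours of Mir363 were not over 2-fold lower, and in the cluster of Mir363 to Mir106a 1 of 5 genes passed 2-fold. The miRNA gene clusters of Mir17 to Mir19b-1 and of Mir25 to Mir106b, which promote proliferation, had medians of −0.14 and 0.28 with no gene past 2-fold.

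The cluster of Mir379 to Mir369 belongs to the imprinted Dlk1 to Dio3 region, where the long RNAs Meg3 and Rian and the miRNAs are transcribed from the maternal chromosome. Its median difference was −1.53 over 30 genes, with a lowest value of −2.58 for Mir379. Mir379 was at 6.91 in the heterologous array and 4.36 and 4.31 after co-injection, beside 4.54 in parental ESCs and 5.65 in the homologous array. Mir377 was at 10.67 against 8.69 and 8.18 (−2.23 ± 0.36), beside 8.20 and 10.01. Mir380 was at 9.16 against 7.48 and 6.47 and had the widest spread of the pair of any gene, an SD of 0.71. The heterologous array was the highest of the 5 in 29 of the 30 genes, and in these 29 the homologous array lay between it and the other 3. The exception was Mir666, with a difference of 0.16. In the neighbouring miRNA gene cluster on chromosome 12, Mir673 to Mir370, 1 of 10 genes was over 2-fold lower, beside 2.99% of all genes. Its median was −0.59, with differences from −1.23 to 0.17. Of the other transcripts of the region, Dlk1, a paternally expressed transmembrane protein, was at 11.59 against 10.35 and 10.15 (−1.34 ± 0.15), while Meg3, Rian and Rtl1 stayed within 2-fold at −0.76, −0.58 and −0.16. Within the cluster of Mir379 to Mir369, miR-379-3p and miR-411-3p share a seed, and so do miR-376b-5p and miR-376c-5p. For this reason these 4 of its sequences are shown (GRCm38.p6, plus strand, between chr12:109709102-109723492).
mmu-miR-379-3p: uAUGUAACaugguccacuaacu
mmu-miR-411-3p: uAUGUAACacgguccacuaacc
mmu-miR-376c-5p: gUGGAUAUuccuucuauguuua
mmu-miR-376b-5p: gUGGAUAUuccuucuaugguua

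**Figure D4:**
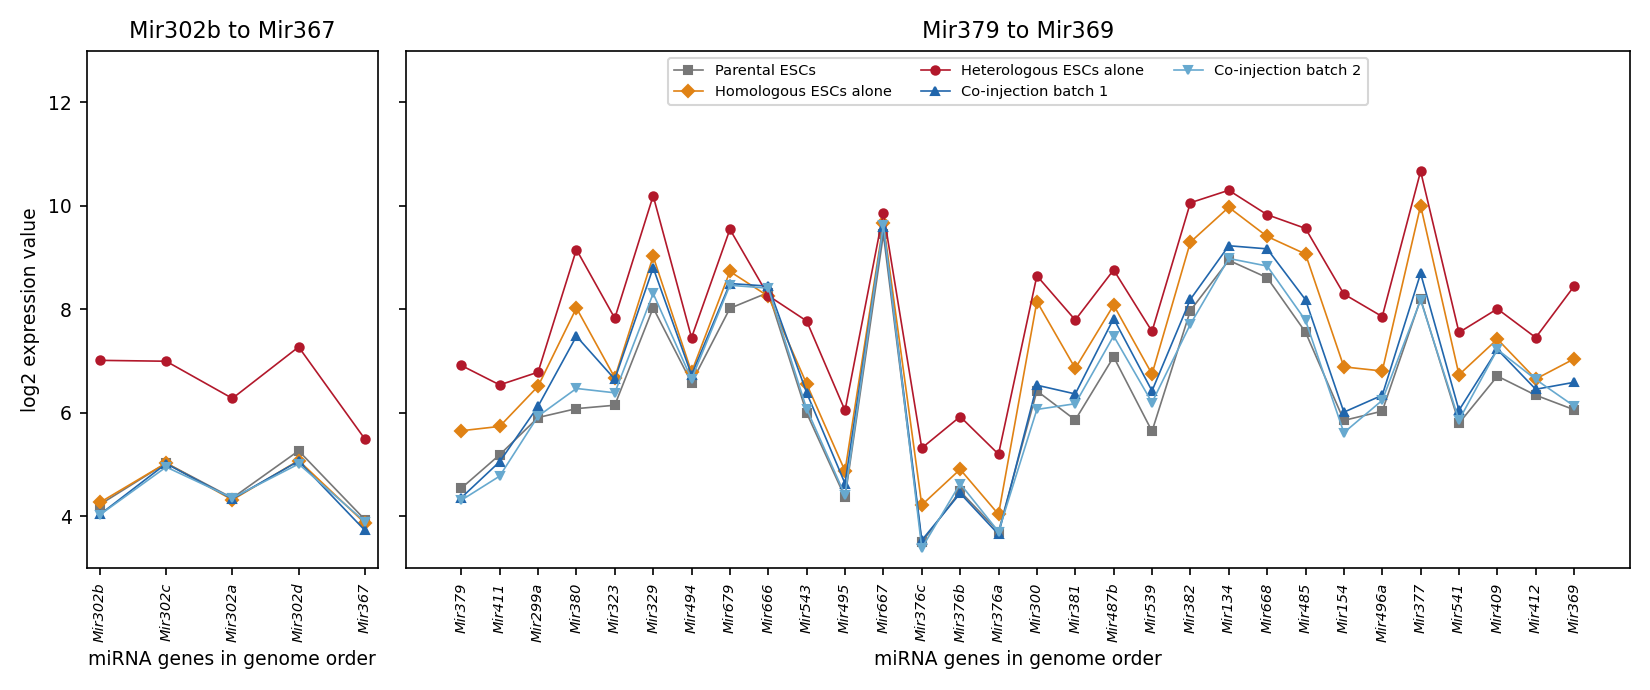
Log2 expression values (y axis) are shown for the miRNA genes of the cluster on chromosome 3 (left) and the cluster on chromosome 12 (right), in genome order, with 1 line per array that joins neighbouring genes. The heterologous array is the highest in all 5 genes on the left, for example 7.01 against 4.03 to 4.27 for Mir302b, and in 29 of the 30 genes on the right, with Mir666 as the exception.

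Chromosome 12 held the largest share of lower genes. Over 12090 genes above the median of all values whose position is known (GRCm38.p6), 4.51% were over 2-fold lower and the median difference was 0.03. On chromosome 12, 49 of 450 genes (10.9%) were over 2-fold lower and the median was −0.21. Divided into 5 parts of equal gene number, chromosome 12 had medians of −0.0020, −0.018, −0.19, −0.45 and −0.78 from its first to its last part, and 32 of the 90 genes of the last part were over 2-fold lower. Without the 28 miRNA genes there, the last part had a median of −0.63 and 14 lower genes. Relative to parental ESCs, the last part had a median of 1.10 in the heterologous array, 0.20 in the co-injection mean and 0.23 in the homologous array, values that share the parental array. Tgfb3, Ltbp2, Fbln5, Flrt2 (−3.73, an adhesion molecule) and Dlk1 lie on this chromosome, and the part of the regional shift in their differences was not tested.

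Chromosome 8 stood on the other side, with a median of 0.20 over 677 genes and of 0.16, 0.18, 0.20, 0.20 and 0.24 in its 5 parts. Relative to parental ESCs, the medians of these parts were 0.00 to 0.07 in the heterologous array. They were 0.21 to 0.26 in the co-injection mean and 0.20 to 0.31 in the homologous array, values that share the parental array. Klf2, Zfp42, Cdh1 and Esrp2 lie on chromosome 8, and the part of its shift in their differences was not tested. All other chromosomes had medians between −0.01 and 0.07. Without the genes of chromosomes 8 and 12, chosen as a setting with these values known, 66 genes were over 2-fold higher and 523 lower, the median of the epithelial list was 1.05 and that of the fibroblast list −1.66. The paper counted chromosomes and reported more aneuploidy in the ESC-like cells than in parental ESCs, without naming the chromosomes. Changes of chromosome number in these lines were not tested here.

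**Figure D5:**
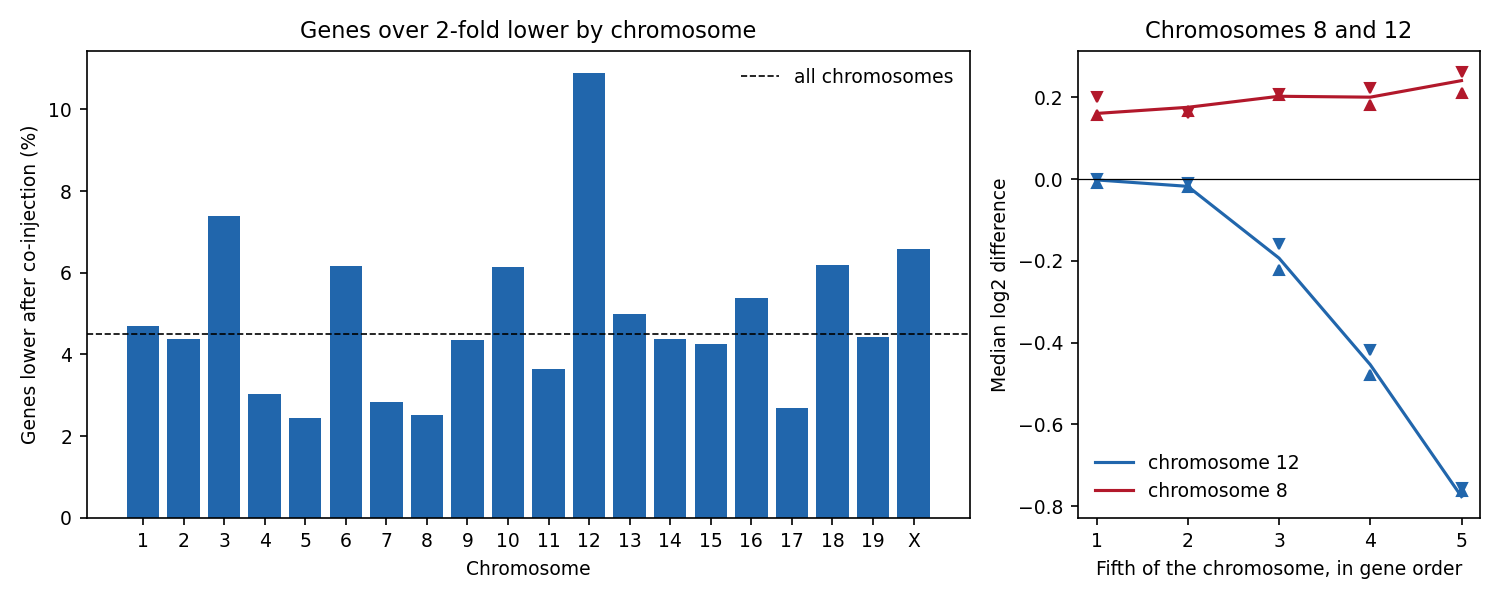
Left, the percentage of genes over 2-fold lower after co-injection (y axis) on each chromosome, with the value over all chromosomes (4.51%) as a dashed line; chromosome 12 reaches 10.9%. Right, the median log2 difference in 5 parts of chromosomes 8 and 12, with lines for the co-injection mean and upward and downward triangles for batches 1 and 2; chromosome 12 falls from −0.0020 to −0.78 and chromosome 8 stays between 0.16 and 0.24.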

How the data were processed

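RNA of the 5 cell populations was hybridized to Affymetrix Mouse Gene 1.0 ST arrays. Probe intensities were read with GCOS by the authors, who then ran RMA, including quantile normalization, and deposited log2 expression values of 35556 probe sets per array. Tool versions and genome build: not given in the sources used here. Quantile normalization gives arrays a common distribution, so a change of total RNA is not seen. No further normalization was applied.

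Gene names came from the platform annotation, updated through gene IDs to RefSeq (99.6% of named probe sets matched). Of the probe sets, 21789 had exactly 1 symbol, 1621 had several and 12146 had none. A gene with several was given by its probe set with the highest mean over 5 arrays, which left 19938 genes. Genes lacking such a probe set were not analysed here. Values at or below 7.49, the median of all values, were treated as dim. Called genes differed more than 2-fold, the fold rule of the methods. With 1 heterologous array no test was made. limma (3.58.1, eBayes, Benjamini-Hochberg adjustment), with 1 residual degree of freedom, was an alternative.

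The members and the 49 gene lists were chosen with earlier results of these data known. Genes were named as the 20 largest differences in each direction with both co-injection arrays past 2-fold and a value above the median, the 4 members at either end of a list, 15 genes the paper names (1 is not reported here), and 3 on either side of each threshold; other genes were named after their values were seen. Chromosomes, promoters and mature miRNAs came from RefSeq (GRCm38.p6), and miRNA genes within 50000 bases formed a cluster. Alternatives were other thresholds, probe set choices, cyclic loess, centring, omission of dim genes and of each co-injection array. Python 3.11.15, numpy 2.4.6, pandas 2.3.3, matplotlib 3.10.9 and R 4.3.3 were used.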

Additional observations from a re-analysis of the deposited data

How the results depend on the processing

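The numbers of called genes depended on the threshold: at 1.5-fold 399 genes were higher and 1200 lower, and at 3-fold 12 and 262. Over all probe sets, named or not, 135 were higher and 978 lower, while 103 differed more than 2-fold between the 2 co-injection arrays. limma called 0 genes in either direction at an adjusted p under 0.05, with all 5 arrays or with 3 (lowest adjusted p = 0.12), while 3298 genes were higher and 2632 lower at an unadjusted p under 0.05; the fit rests on the spread of the co-injection pair alone. Without each co-injection array in turn, 73 to 81 genes were higher and 590 to 592 lower. Cyclic loess gave 61 and 650 and centring on the median difference 60 and 653. The median of the fibroblast list was −1.94 without dim genes, −1.74 with cyclic loess and −1.73 after centring, and −1.69 to −1.63 without each co-injection array. That of the epithelial list was 0.91 after centring, 0.98 to 1.05 without each co-injection array, which puts it on either side of 2-fold, and 1.05 without chromosomes 8 and 12. The medians of 15 of 49 lists, all within 0.10 of 0, crossed 0 under at least 1 setting, as did the differences of Pou5f1, Nanog and Afp, all within 0.09 of 0, so none of these has a direction. Cyclic loess and centring each moved 3 named genes below 2-fold (Cdh1, Pecr and Vmn2r-ps104) and 3 above it, and leaving out a co-injection array moved at most 3 below and 5 above. No paired analysis was possible because the heterologous condition has 1 array, so the groups share fewer than 2 replicate numbers. Background correction was not run, since scanner files were not used here.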

Other observations

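Of 21 interferon response genes, 19 p53 targets, 19 genes of cholesterol synthesis and 15 genes of DNA methylation none passed 2-fold, with median differences of 0.08, −0.10, 0.00 and 0.17. Of 35 genes of the cell cycle 2 (5.7%, against 2.99% of all genes) were over 2-fold lower. These were the D-type cyclin genes Ccnd2 (11.92 in the heterologous array against 9.06 and 9.16, a difference of −2.80 ± 0.071, SD, n = 2) and Ccnd1 (−1.02). Replication and mitosis genes such as Mki67, Top2a and Mcm2 had differences of 0.28, 0.22 and 0.17. Of 6 inhibitors of cyclin-dependent kinases 1 (16.7%, against 2.99% of all genes), Cdkn2b, was over 2-fold lower (−1.41). Of 20 S100 and annexin genes, which encode calcium-binding proteins, 7 (35.0%, against 2.99% of all genes) were over 2-fold lower, with a median of −0.40, led by Anxa1 at 10.48 against 6.88 and 6.99 (−3.54 ± 0.080) and S100a6 (−2.74).

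Among 25 germ line and meiosis genes 3 were over 2-fold higher, namely Dppa3, the piRNA pathway gene Tdrd12 (8.55 in the heterologous array against 9.88 and 9.98, 1.38 ± 0.071) and Prdm1, a transcription factor of germ cell fate (1.12 ± 0.060), while Ddx4 and Sycp3, which mark later germ cells, had differences of 0.06 and 0.05. Of 10 genes of the 2-cell stage 3 (30.0%, against 2.99% of all genes) were over 2-fold lower, with Tdpoz3 at −1.75. Outside the Dlk1 to Dio3 region, imprinted genes over 2-fold lower were Dcn, Igf2, Osbpl5, Ndn and Plagl1 (−3.49, −1.43, −1.06, −1.05 and −1.05). Of 25 genes of hypoxia and glycolysis 1 (4.0%, against 0.361% of all genes), Pfkp, was over 2-fold higher (1.19). Over 2-fold lower were 2 (8.0%, against 2.99% of all genes), Adm and P4ha1 (−1.10 and −1.02), and the median was 0.06. Of the called genes, 428 lower and 49 higher ones belonged to none of the 49 lists. Among these were Tm4sf1, a surface protein of endothelium and tumors (11.46 against 7.30 and 7.49, −4.07 ± 0.14), Gzme, a granzyme (9.31 against 5.19 and 6.09, −3.67 ± 0.64), Gm5662, a predicted gene (−3.81 ± 0.46), and Rhoj, a small GTPase (−3.60). Among the higher ones were Lrrc34 (1.59 ± 0.22), AU015836 (1.55 ± 0.059), Dnajc6, a cofactor of clathrin uncoating (1.48 ± 0.18), Liph, a lipase (1.47 ± 0.20), and Phf11d (1.39 ± 0.28).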
